A study of Caenorhabditis elegans with 39 samples.

Results

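In the germline of Caenorhabditis elegans, 208 of the 22844 features of the gonad mRNA table were lower in prg-1 mutants while staying near or above their wild type level in mut-16 mutants. These 208 mRNAs were chosen by their mean normalized reads in the 3 prg-1, 3 mut-16 and 3 wild type gonad libraries. A gene was selected when its wild type mean was at least 100, its ratio of prg-1 to wild type, with 1 added to both means, was at most 0.6, and its ratio of mut-16 to wild type was above 0.8. Transposon and pseudogene entries and the histone cluster with ZK131 names were left out. Of the 5940 features of sufficient level, 325 met the prg-1 limit, 117 of them were also below the mut-16 limit, and 208 were not. The gonad mRNA levels below therefore describe the choice and carry no test.

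Distal gonad arms were dissected from gravid adults grown for 68 to 70 h at 20°C, and many arms were pooled in each replicate. The prg-1(n4357) and mut-16(pk710) animals were of strains outcrossed once to the N2 wild type, and the wild type gonads were from N2. Whole wild type animals of the same age and temperature were sequenced beside the gonads, again with 3 libraries. The mRNA libraries were made from rRNA-depleted RNA longer than the small RNAs, which were sequenced separately, and all values are reads normalized by the authors.

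PRG-1 is the Piwi protein that binds piRNAs, short germline RNAs that recognize target transcripts by base pairing. Recognition recruits RNA-dependent RNA polymerases that make secondary 22G-RNAs, and MUT-16 is the scaffold of the perinuclear foci where the silencing class of these 22G-RNAs, bound by WAGO Argonautes, is made. A further class of 22G-RNAs is bound by CSR-1 and matches most mRNAs expressed in the germline. The X chromosome is largely silent in the mitotic and early meiotic germline of the worm, and its genes are transcribed mainly during oogenesis.

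The libraries fitted their labels in the targeted genes. The prg-1 mRNA averaged 5414 ± 802 normalized reads in prg-1 libraries, 8108 ± 79.5 in mut-16 libraries and 10549 ± 600.3 in wild type libraries (SD, n = 3 each). The mut-16 mRNA averaged 949.9 ± 25.7 in its own mutant, against 2069 ± 17.9 in wild type. Replicates of a group correlated between 0.952 and 0.990 in log2 values across features. Summed sperm marker mRNAs (37 genes, 1 of them at 0 in wild type) were higher in the mutants: 7058 to 35874 in prg-1 and 4294 to 10145 in mut-16, against 339 to 1521 in wild type. Prg-1 replicate 3 was highest, and without it the same rule gave 194 genes, 150 of them on the X. Summed oocyte markers (10 genes, none at 0) were 116434 to 119845 in prg-1, 125662 to 127811 in mut-16 and 137054 to 140591 in wild type. Distal germ cell markers (8 genes, none at 0) summed to 40629.5 to 47025 in prg-1, 31441.5 to 35596 in mut-16 and 37237 to 40729 in wild type. Intestinal markers (11 genes, none at 0 in wild type) summed to at most 686 in any gonad library, against 225339 to 234485 in whole animals. Muscle markers (7 genes, 1 at 0 in wild type) summed to 1100 to 2426 in prg-1 and 974 to 1307 in mut-16, against 444 to 537 in wild type, and gonadal sheath markers (5 genes, none at 0) to 1519 to 1829 in prg-1 and 1377 to 2073 in mut-16, against 1199 to 1285 in wild type. The part of these markers in the results below was not tested, and in pooled arms fewer cells of a type cannot be told apart from less RNA per cell.

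The chosen mRNAs came mainly from the X chromosome. Of the 207 that matched a RefSeq gene of the WBcel235 assembly, 160 were X-linked, which is 76.9% of the 208. The X carried 402, or 6.77%, of the 5940 features with a wild type mean of at least 100. Among genes that met the wild type and mut-16 limits, 49.7% of those on the X were chosen, against 0.909% of those on the autosomes. Chromosome V held 17 of the chosen genes, II held 11, I held 10, III held 5 and IV held 4. The rule did not use position.

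X-linked mRNAs were lower in prg-1 gonads as a body, whether chosen or not. Over the 402 X-linked features the median log2 ratio of prg-1 to wild type was -0.80, against -0.05 over 5469 autosomal ones. In mut-16 it was -0.15 on the X and -0.05 on the autosomes. The 242 X-linked features that were not chosen had a median of -0.63 in prg-1. They are not all above the prg-1 limit: 226 of the 402 met it and 160 were chosen, the rest failing the mut-16 limit. Over the 9943 features tested by limma, where a call needed a p below 0.05 after Benjamini-Hochberg adjustment and a change of at least 1.3-fold, 357 of the 804 X-linked features that were not chosen were lower in prg-1 (44.4%) and 93 were higher (11.6%), with a median log2 change of -0.51. On the autosomes 416 of 8734 were lower (4.76%) and 1936 higher (22.2%). In mut-16, 73 of these 804 were lower (9.08%) and 79 higher (9.83%), and on the autosomes 369 were lower (4.22%) and 1414 higher (16.2%). In both mutants the X thus had a larger share of features lower and a smaller share higher than the autosomes, with a far wider gap in prg-1. The share of all normalized mRNA reads that fell on X-linked genes was 0.735%, 0.689% and 0.687% in prg-1, 1.14%, 1.03% and 1.04% in mut-16, and 1.17%, 1.14% and 1.11% in wild type. Without the chosen genes it was 0.511%, 0.473% and 0.488% in prg-1, against 0.703%, 0.676% and 0.664% in wild type. Every prg-1 library lay below every wild type library in both measures. Both mutant comparisons share the wild type libraries. The limma calls used the libraries of the choice, so they are a description and no separate test.

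**Figure D1:**
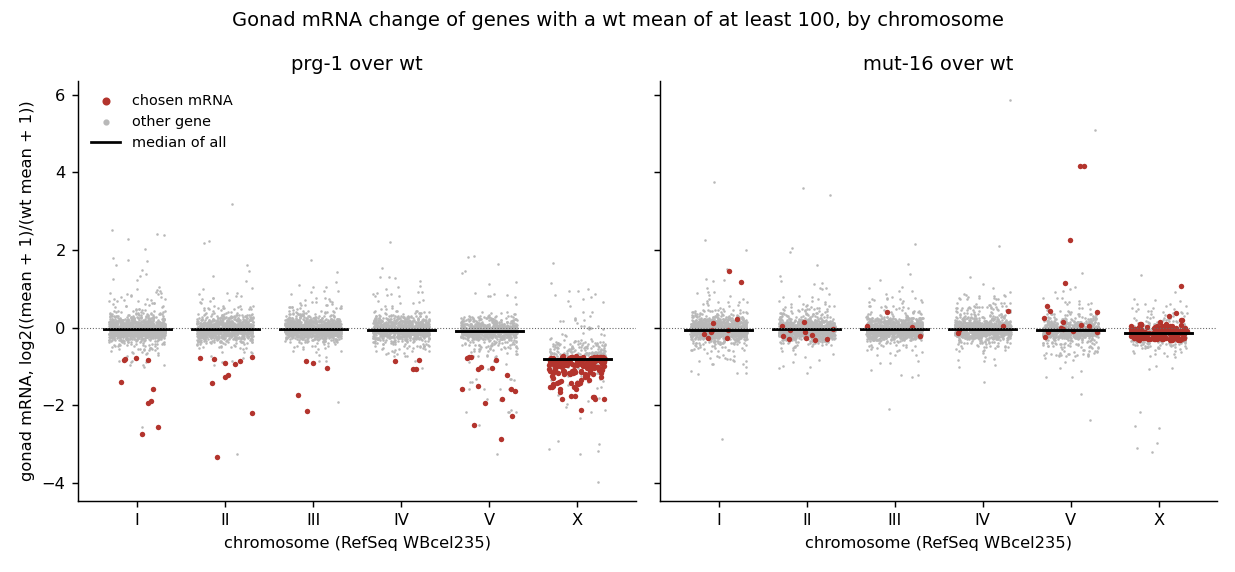
Log2 ratio of the mean gonad mRNA level to wild type for features with a wild type mean of at least 100, in prg-1 (left) and mut-16 (right), by chromosome. Red points are the chosen mRNAs, grey points other genes and black bars the median of all, which on the X was -0.80 in prg-1 and -0.15 in mut-16.

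The depth of the fall was moderate for most. The median gene was 1.97-fold lower in prg-1, 96 of 208 were at least 2-fold lower and 23 at least 3-fold lower, with a largest fold of 10.1. In the same limma fit 204 of the 208 were called lower, where 9.53% of all tested features were lower and 20.7% higher; the rule nearly fixes this count. Every prg-1 library was below every wild type library for 207 genes, the exception being D1054.10, a count that the rule also nearly fixes. The same held for 32.9% of the 5940 features with a wild type mean of at least 100. X-linked genes were 1.94-fold lower in the median, with a range of 1.67 to 4.33, and the 47 autosomal ones 2.09-fold lower, with a range of 1.68 to 10.1. The autosomal group therefore held the deepest falls.

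The level in mut-16 was not uniform either. The ratio to wild type was below 1 for 163 genes and between 0.8 and 0.9 for 92 of them, and for 63 genes all 3 mut-16 libraries lay below all 3 wild type libraries. For 17 genes all 3 mut-16 libraries lay above wild type. Of the 5940 features, 34.2% lay wholly below wild type in mut-16 and 15.6% wholly above. The rule admits only mut-16 ratios above 0.8, which limits the count below, so these shares cannot be compared as a result. A ratio below 1 was seen in 138 of the 160 chosen X-linked genes and 24 of the 47 autosomal ones. Over features of that level it was seen in 76.6% on the X and 61.7% on the autosomes. The ratio reached 1.3 in 12 genes, 11 of them autosomal. The X-linked genes had a median mut-16 ratio of 0.898 and the autosomal genes 0.994.

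The genes nearest the limits show how the set was bounded. At the prg-1 limit, gap-2, pfk-1.1 and sax-1 lay inside with ratios of 0.5996, 0.599 and 0.597, and cdr-6, mbk-1 and sec-3 lay outside with 0.6001, 0.601 and 0.601. At the mut-16 limit, vem-1, R09F10.8 and tbc-1 were inside with 0.8004, 0.801 and 0.802, and unc-84, C02F5.12 and F31F6.1 outside with 0.7997, 0.797 and 0.796. At the level limit, C03A3.2, dao-3 and dhs-27 averaged 100.02, 100.4 and 101 in wild type, and sid-3, calm-1 and his-54 averaged 98.7, 98.6 and 97.5.

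The deepest fall was in his-44, a histone gene. It had 250.1, 291 and 426 normalized reads in prg-1, 2817, 2474 and 2654 in mut-16, and 3383, 2952 and 3433 in wild type. All prg-1 libraries were far below the rest, at a ratio of 0.099, and the mut-16 ratio was 0.813. The other histone genes in the set were his-1, his-4, his-35 and his-38, with folds of 2.06, 1.78, 1.71 and 2.02. The histone family was counted by gene symbol, so it includes genes of the ZK131 cluster that the rule left out. Of the 67 histone genes tested, 32 were lower and 5 higher in prg-1, and 20 were lower and 27 higher in mut-16. Over all tested features 9.53% were lower and 20.7% higher in prg-1, and 4.6% were lower and 15.5% higher in mut-16. Their median log2 change was -0.27 in prg-1, against 0.01 over all tested features, and -0.02 in mut-16. Many histone genes are near-identical copies, so the split of reads among them is uncertain, and the study drew attention to histones from these same libraries. It also reported lower histone mRNA by qRT-PCR in whole animals of a separate prg-1 deletion strain.

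A trio of F-box genes of the fbxa family, which encode putative substrate receptors of ubiquitin ligases, were chosen. The first, fbxa-192, had 44.1, 50.3 and 74.5 reads in prg-1, 888, 938 and 980 in mut-16, and 454, 405 and 405 in wild type. It was thus lowest in prg-1 and highest in mut-16, with no overlap among the 3 groups. Its relatives fbxa-108 and fbxa-106 were 3.56- and 2.02-fold lower in prg-1, with mut-16 ratios of 1.34 and 1.11. Of 56 fbxa genes tested, 12 were lower and 13 higher in prg-1, with a median log2 change of 0.08. In mut-16, 10 of them were lower and 20 higher. The shares over all tested features were 9.53% lower and 20.7% higher in prg-1, and 4.6% lower and 15.5% higher in mut-16.

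A group of autosomal genes shared the pattern of fbxa-192, low in prg-1 and high in mut-16. R06C1.4 had 53.3, 71.5 and 74.5 reads in prg-1, 1016, 1124 and 1158 in mut-16, and 391, 369 and 435 in wild type. C27C7.1 was 6.73-fold lower in prg-1 with a mut-16 ratio of 2.26, and Y102A5C.36 was 4.87-fold lower with a mut-16 ratio of 4.76. The most divergent was W09B7.2, with 29.4, 35.2 and 43.9 reads in prg-1, 1946, 2043 and 2039 in mut-16, and 97.2, 107 and 126 in wild type. F07B7.2 carried the same 9 values, as did rgs-8.1 and rgs-8.2 between them, so the reads of each pair cannot be assigned to either copy and the 208 genes make 206 distinct rows. F57A10.4 was 3.81-fold lower in prg-1, with a mut-16 ratio of 1.47. The X-linked gene with the highest mut-16 ratio was pks-1, a polyketide synthase gene. It had 98.4, 89.6 and 83.1 reads in prg-1, 429, 377 and 426 in mut-16, and 185, 199.8 and 194 in wild type.

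**Figure D2:**
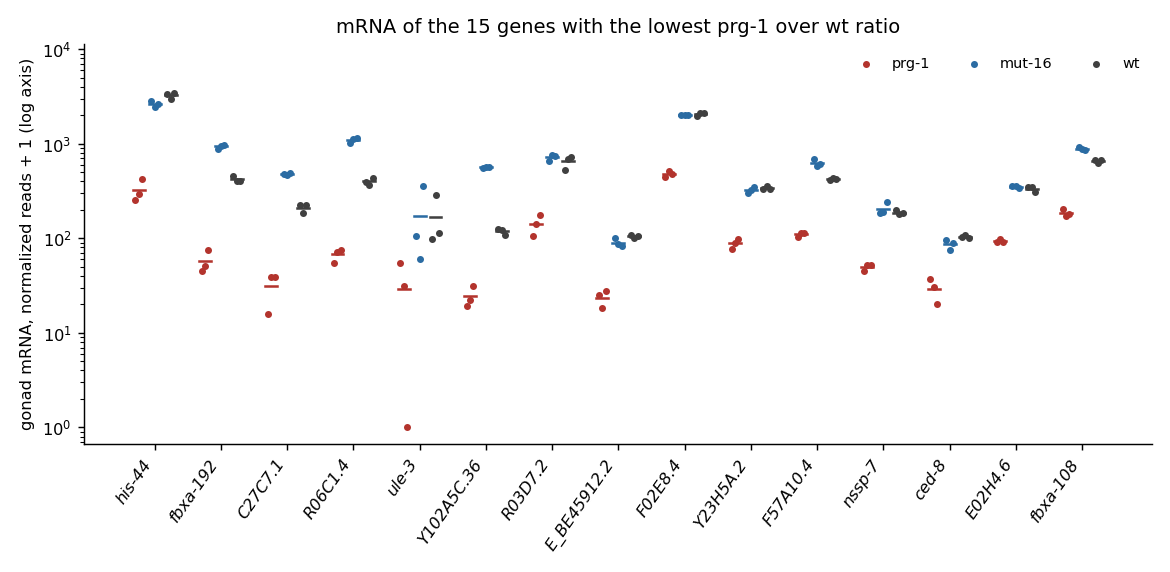
Normalized gonad mRNA reads plus 1, on a log axis, for the 15 genes with the lowest ratio of prg-1 to wild type; points are the 3 libraries of each genotype and bars their means. The prg-1 points of his-44 sit at 250.1 to 426 against 2952 to 3433 in wild type, and ule-3 varies widely within each genotype.

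Other genes among the 15 lowest ratios held near wild type in mut-16. R03D7.2 was 4.60-fold lower in prg-1, E_BE45912.2 was 4.46-fold lower, Y23H5A.2 was 3.86-fold lower and nssp-7 was 3.74-fold lower, with mut-16 ratios between 0.855 and 1.11. The X-linked F02E8.4 had 442, 509.5 and 479 reads in prg-1, 2024, 2006 and 1993 in mut-16, and 1969.7, 2127 and 2107 in wild type, a 4.33-fold difference from wild type. Also X-linked were ced-8, which acts in the timing of programmed cell death, at 3.58-fold lower, and E02H4.6 at 3.57-fold lower. The uterine lumen gene ule-3 was less secure: it had 54.3, 30.2 and 0 reads in prg-1, 105, 58.9 and 353 in mut-16, and 97.2, 288 and 113 in wild type. Its neighbour D1054.10 and the further uterine gene ule-5 varied in the same manner, and all 3 were far more abundant in whole animals than in gonads.

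The most abundant of the 208 were led by mrp-4, an ABC transporter gene on the X. It had 3642, 3445 and 3059 reads in prg-1, 6284, 6132 and 6234 in mut-16, and 6271, 6008 and 6189 in wild type. The groups of mut-16 and wild type overlapped, and the prg-1 libraries lay apart from both, at 1.82-fold lower. The spectraplakin gene vab-10 and D2005.4, both on chromosome I, were 1.76- and 1.71-fold lower. W07E11.1 was 2.65-fold lower and averaged 3768 reads in wild type. The endoplasmic reticulum chaperone gene hsp-3 was 1.95-fold lower. Further genes of this level were memi-3, required in the change from meiosis to mitosis in the embryo (1.83-fold), asfl-1, encoding a histone chaperone of the ASF1 family (1.79-fold), and inos-1, encoding inositol phosphate synthase (2.68-fold).

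Few of the 208 belonged to the germline pathways examined. Of 21 P granule genes tested, meg-2, meg-3 and meg-4 were in the set and 6 in all were called lower in prg-1, none higher, where 9.53% of all tested features were lower and 20.7% higher. MEG-3 and MEG-4 are disordered proteins that assemble P granules in the embryo. The meg-3 mRNA had 658, 691 and 692 reads in prg-1, 1362, 1337 and 1341 in mut-16, and 1349, 1476 and 1461 in wild type; meg-4 and meg-2 were 1.76- and 1.80-fold lower. All 3 are X-linked, as are 5 of the 21 genes. The list's median log2 change in prg-1 was -0.01, close to the 0.01 of all tested features, and the study named P granule genes from these libraries. With 6 genes lower and only 5 X-linked, the lower calls of the list also reached the autosomes. The 4 most abundant P granule genes outside the set, npp-10, pgl-1, ife-1 and glh-1, are autosomal. They were not called in prg-1, with log2 changes of 0.11, 0.16, 0.10 and 0.37.

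Single members came from other lists. The piRNA and 22G-RNA pathway gave nrde-3, the Argonaute of somatic nuclear RNAi, with 266, 227 and 264 reads in prg-1, 494, 460.2 and 418 in mut-16, and 556, 508 and 516 in wild type. Of 59 genes of that pathway tested, 4 were lower in prg-1, among them the mutated gene prg-1 itself, and 8 were higher. Beside this and the list counts that follow, 9.53% of all tested features were lower and 20.7% higher. The chromatin regulators gave lin-15B (2.08-fold), a class B synMuv gene, with 2 of 24 genes lower. Embryonic polarity gave lgl-1 (1.70-fold), a lethal giant larvae homolog, with 2 of 33 lower. Germline sex determination gave tra-4 (1.85-fold), with 1 of 23 lower and 1 higher. Heat shock and stress gave hsp-3 and egl-9, the prolyl hydroxylase of the hypoxia pathway (2.09-fold), with 3 of 27 lower and 1 higher. The median log2 changes of these lists in prg-1 lay between -0.13 and 0.03, against 0.01 over all tested features. The lists of maternal RNA-binding proteins, eggshell, meiotic chromosomes, DNA replication, cell division, stem cells and meiotic entry, translation, lipid and yolk, ubiquitin ligases and nuclear pore held no chosen gene. These 10 lists had 17 to 66 tested genes each, of which at most 2 per list were called lower in prg-1, and 8 of the lists had no X-linked gene.

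Smaller symbol families were also present. The rgs family of G protein signalling regulators gave rgs-11 (2.22-fold) beside the copies rgs-8.1 and rgs-8.2 (1.77-fold each). The genes tag-123, tag-52 and tag-294 were 1.90-, 1.79- and 1.68-fold lower. Single members of larger families were nhr-48, encoding a nuclear hormone receptor (1.93-fold), puf-9, encoding a Pumilio family RNA-binding protein (1.69-fold), ugt-58 (1.82-fold) and gst-43 (3.00-fold), and the homeobox genes ceh-39 and ceh-21 were 1.81- and 1.77-fold lower. The dosage compensation gene sdc-2, singled out after its values were seen, had 154, 118 and 138 reads in prg-1, 459.5, 407 and 443 in mut-16, and 447, 373 and 355 in wild type. In the WBcel235 gene order, 30 of the 208 stood next to another chosen protein-coding gene, in 14 runs of up to 3 genes, 11 of them on the X. The runs included lin-15B with lin-15A, dao-3 with vem-1, and fbxa-192 with fbxa-108. How many runs the crowding of chosen genes on the X would give by itself was not tested.

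The 22G-RNAs of the same genes were not used by the rule. Of the 208 genes, 122 had an annotated 22G-RNA row and 86 had none. One gene, nrde-3, was listed with the same values in both classes, which gave 123 rows, 72 in the CSR-1 class and 51 in the class that depends on mutator proteins. After a filter on low values, 116 rows were tested, and calls were made with limma over all small RNA features with the same thresholds as above.

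In prg-1 gonads the CSR-1 class rows fell more often than the class as a whole. Of 65 tested, 41 were lower, against a background of 12.2% of all CSR-1 class loci, and 3 were higher, against 21.7%. Their median log2 change was -1.06, and it was 0.11 over the class. The other X-linked loci of the class were also low, with 40 of 88 lower (45.5%), next to 32 of the 55 chosen X-linked rows (58.2%). Of the 9 autosomal rows, 8 were lower, where 10.2% of other autosomal loci were.

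In the mutator class, 38 of 51 rows were lower in prg-1, against 57.9% of all loci of the class, and 10 were higher, against 16.2%. The chromosomes differed. On the X, 35 of 37 rows were lower and 2 higher, where 74.6% of the 256 other X-linked loci were lower and 12.9% higher. The median log2 change was -2.85 in both of these sets. On the autosomes 3 of 14 rows were lower and 8 higher, with a median of 1.98. The 1493 other autosomal loci had a median of -2.06, with 68.5% lower and 14.1% higher. The 8 include the identical rows of W09B7.2 and F07B7.2. Summed over the X-linked rows of both classes, 22G-RNAs amounted to 5381, 5891 and 6484 reads in prg-1, 5108, 5150.3 and 4936 in mut-16, and 24368, 26400 and 24553 in wild type. Over the 23 autosomal rows the sum went the other way, with 157850, 161685 and 183239 reads in prg-1, 12993, 13689 and 14221 in mut-16, and 29645, 26260 and 25509 in wild type. A few abundant rows set the autosomal sum, with inos-1 alone at 77797 to 87681 reads in prg-1, and over all 123 rows the sum was likewise highest in prg-1, at a mean of 173535 against 52354 in wild type. The identical rows of W09B7.2 and F07B7.2, each averaging 15243 in prg-1 and 1721 in wild type, were both counted in the autosomal and all-row sums. The nrde-3 values were likewise counted in both classes, in the X-linked and all-row sums.

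The largest falls were nearly complete. T24E12.11, on chromosome II, had 1.99, 4.79 and 8.65 22G-RNA reads in prg-1, 9.65, 13.02 and 6.89 in mut-16, and 783, 706 and 788 in wild type. Its log2 change was -7.11 ± 0.40 (SE) in prg-1, with a limma adjusted p of 1.42e-07. On the X, K07E3.2 had 8.97, 5.98 and 4.32 reads in prg-1, 6.90, 13.02 and 4.92 in mut-16, and 479, 513 and 391 in wild type. The mutants were alike in both genes and lay far below wild type. The ER-shaping gene lnp-1, K09E3.7, ceh-39 and tag-294 followed with log2 changes of -5.21, -5.08, -4.23 and -4.23 in prg-1. The mRNAs of these 6 genes were 1.68- to 2.72-fold lower in prg-1 and had mut-16 ratios of 0.868 to 1.01.

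CSR-1 class rows that fell included abundant transcripts of the set. F02E8.4 had 17.9, 25.12 and 28.1 22G-RNA reads in prg-1, 423, 419 and 335 in mut-16, and 443, 385 and 408 in wild type. Its fall of 4.08 on the log2 scale in prg-1 (limma adjusted p 2.04e-08) was the largest of the class in the set, and the mut-16 libraries overlapped wild type. D2005.4 had 408, 457 and 376 reads in prg-1, 2155, 2305 and 2406 in mut-16, and 2358, 2607 and 2803 in wild type. For mrp-4 the values were 615, 699 and 595 in prg-1, 1556, 1694 and 1711 in mut-16, and 2490.5, 2350 and 2420.5 in wild type. In D2005.4 the 22G-RNAs fell by 2.64 on the log2 scale while its mRNA ratio was 0.584.

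A minority of genes carried more 22G-RNAs in prg-1. The largest amount was at inos-1, a CSR-1 class row, with 78383, 77797 and 87681 reads in prg-1, 5741, 5948 and 5981 in mut-16, and 7825, 5612 and 5679 in wild type. Its log2 change in prg-1 was 3.69 ± 0.12 (SE, limma adjusted p 1.07e-08), and the mut-16 and wild type libraries overlapped. The ciliary gene dyf-3 rose most, with 16310, 16754 and 22042 reads in prg-1, 16.55, 48.5 and 144 in mut-16, and 637, 179 and 210 in wild type, a log2 change of 5.98 ± 0.84. R06C1.4 had 7854, 7896 and 9422 reads in prg-1, 71.7, 62.7 and 127 in mut-16, and 634, 483 and 412 in wild type. It was highest in prg-1 and lowest in mut-16, the reverse of its mRNA order.

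Rises of like size were seen at E02H9.3, his-35 and fbxa-106, with log2 changes of 4.69, 4.13 and 3.35. W09B7.2 and its copy had 13594, 15357 and 16779 reads in prg-1, 521, 532 and 635 in mut-16, and 1942, 1691 and 1531 in wild type. The 13 genes whose 22G-RNAs rose had a median mRNA fold of 2.68 lower in prg-1 and a median mut-16 ratio of 1.31, and 4 were X-linked. The 78 genes whose 22G-RNAs fell had a median fold of 1.92 and a median mut-16 ratio of 0.9004, and 66 were X-linked. The 24 genes whose tested rows were not called had a median fold of 1.84 and a median mut-16 ratio of 0.92, and 21 were X-linked. Their deepest mRNA fall was 7.37-fold, in fbxa-192, whose 22G-RNAs averaged 6316 reads in prg-1 and 6390 in wild type. The 7 genes with an untested row had a median fold of 1.96. These mRNA values are those of the choice and were not tested. The 86 genes with no 22G-RNA row had a median fold of 1.99, and 62 were X-linked.

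**Figure D3:**
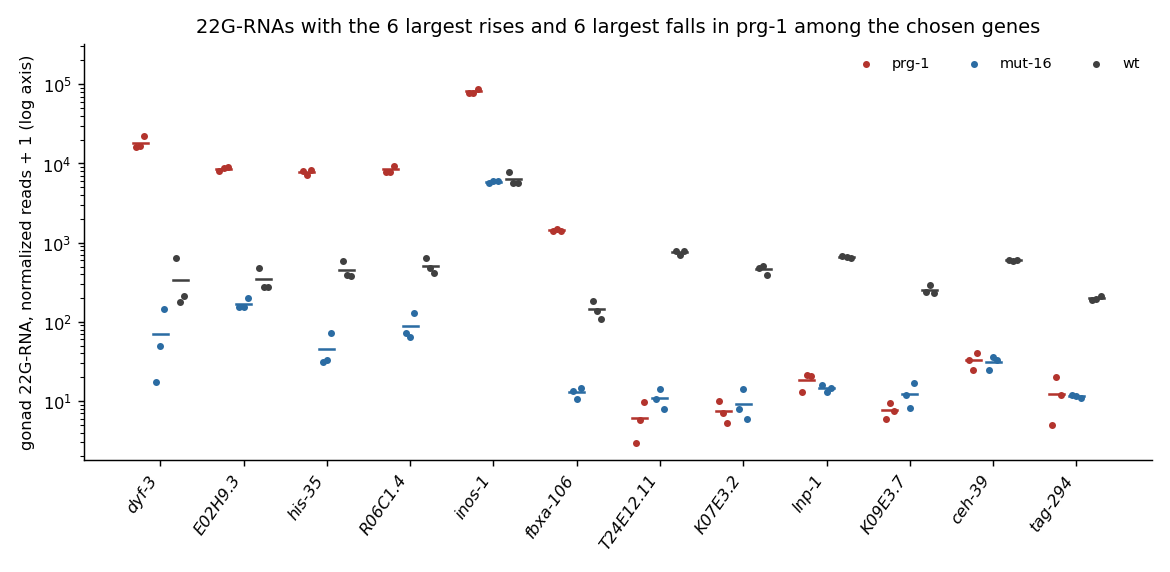
Normalized gonad 22G-RNA reads plus 1, on a log axis, for the 6 chosen genes with the largest called rise (left) and the 6 with the largest called fall (right) in prg-1; points are libraries and bars means. The inos-1 points lie at 77797 to 87681 in prg-1 and 5612 to 7825 in wild type, and the 6 genes at right are low in both mutants.

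**Figure D4:**
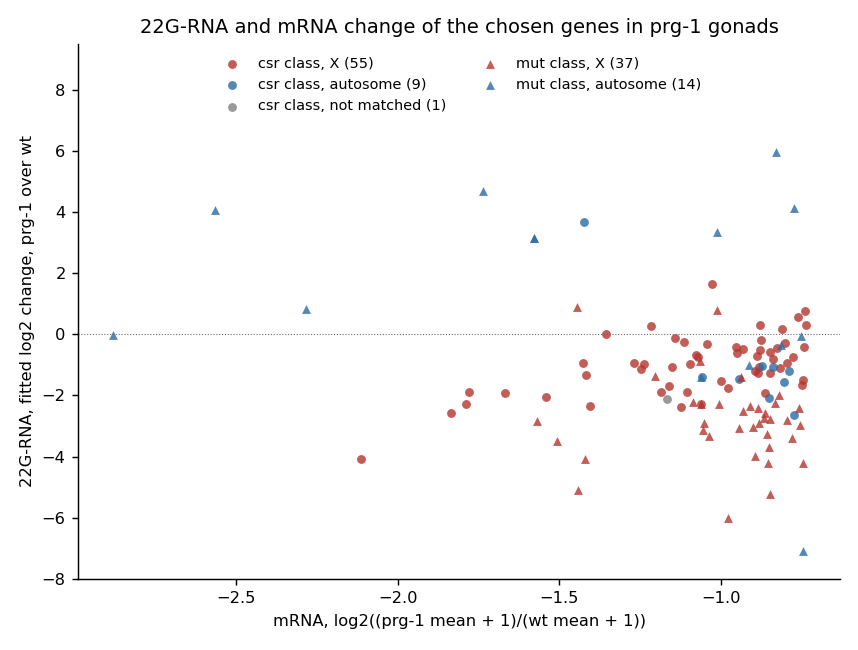
Fitted log2 change of 22G-RNAs against the log2 ratio of mRNA in prg-1 gonads for the 116 tested rows, by 22G-RNA class and chromosome. Of the X-linked points 67 were called lower and 4 higher, and of the 23 autosomal points 11 were called lower and 9 higher.

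In mut-16 gonads the 51 mutator class rows were all lower, as were 99.7% of all loci of the class, and 0% of the class was higher. Their median log2 change of -3.74 was smaller in size than the -5.58 of the class. The largest falls were at pks-1, gfi-3, C45B2.6 and T24E12.11. The pks-1 row had 912.8, 1194 and 1384 reads in prg-1, 22.1, 17.7 and 19.7 in mut-16, and 4882, 5874 and 5224 in wild type, a fall of 8.00 on the log2 scale in mut-16 and of 2.21 in prg-1. In the CSR-1 class 31 of 65 rows were lower, against 8.64% of the class, and 1 was higher, against 35.9%. The X-linked rows of the class, 27 of 55 lower (49.1%) with a median log2 change of -0.82, were close to the 88 other X-linked loci of the class, of which 37 were lower (42%) with a median of -0.85. The riser was arrd-13, an arrestin domain gene on chromosome II, with 52.8, 77.8 and 58.4 reads in prg-1, 276, 286 and 247 in mut-16, and 154, 175 and 192 in wild type. Its log2 change in mut-16 was 0.64 ± 0.16 (SE, limma adjusted p 0.0056), and under miRNA-based scaling it was -0.39.

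Tested directly between the mutants, 21 of the 116 rows were lower in prg-1, against 14.7% of all 22G-RNA loci, and 40 were higher, against 32.1%. Scaling to equal library totals changed the split to 62 lower and 27 higher, so which mutant was lower for most rows depended on the scaling. Of the 21, 18 were CSR-1 class rows, led by F02E8.4 (log2 difference -4.01), E02H4.6 (-2.53) and D2005.4 (-2.47). Of the 40, 32 were mutator class rows.

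Wild type gonads were then compared with wild type whole animals, a contrast that uses the same wild type gonad libraries as the rule and so is not independent of it. All 208 mRNAs were tested; 29 were higher in gonads, against 26.1% of all tested features, and 132 lower, against 52.6%. Among X-linked genes 7 of 160 were higher and 114 lower, and among the 242 other X-linked genes with a wild type gonad mean of at least 100, 11 were higher and 191 lower. Of the 47 autosomal genes 21 were higher and 18 lower, where 54.6% of other autosomal genes of that level were higher and 9.6% lower. The median log2 change was -0.63 for the X-linked and -0.04 for the autosomal chosen genes.

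The genes most enriched in gonads were R03D7.2, W09B7.2 with its copy F07B7.2, his-44 and Y102A5C.36, with log2 changes between 1.05 and 1.20. R03D7.2 averaged 639 ± 98.3 in gonads and 277 ± 43.5 in whole animals (SD, n = 3 each). The most depleted were ule-5, D1054.10 and ule-3, with log2 changes of -6.38, -6.35 and -6.13, followed by fah-1, which encodes the last enzyme of tyrosine breakdown, and dao-3 with -3.27 and -2.87. The ule-5 mRNA averaged 111 ± 60.5 in gonads and 8470.3 ± 354 in whole animals. Its values in prg-1 and wild type gonads spanned 4.77 to 63.5 and 64.2 to 186.

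**Figure D5:**
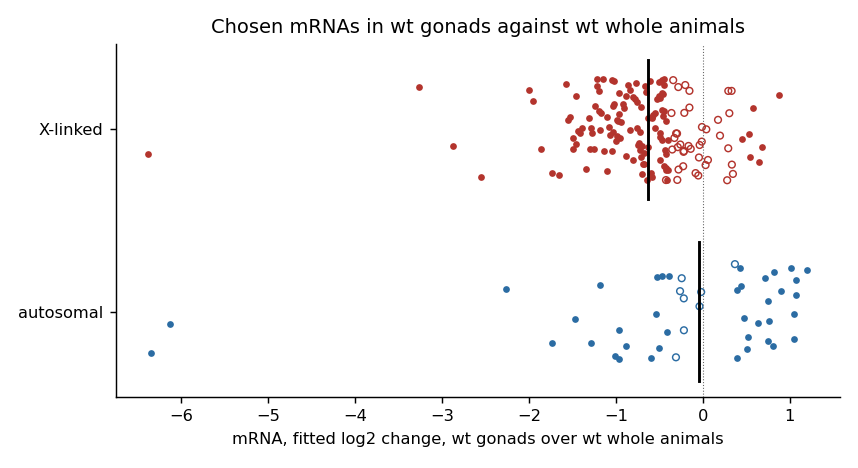
Fitted log2 change of the 207 chosen mRNAs that matched a chromosome, in wild type gonads over wild type whole animals; filled points were called and open points were not, and black bars are medians. The X-linked median was -0.63 and the autosomal median -0.04, with ule-5, D1054.10 and ule-3 below -6.

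Of their 22G-RNA rows 95 passed the filter in this comparison, 14 were higher in gonads, against 37.8% of all 22G-RNA loci, and 19 lower, against 15%. Of the 72 X-linked rows 17 were lower (23.6%) and 4 higher, where 46.6% of 309 other X-linked loci were lower. The 2 sets differed in their mix of classes. In the mutator class 43.2% of 37 chosen and 54.3% of 258 other X-linked loci were lower, and in the CSR-1 class 2.9% of 35 and 7.8% of 51. Of the 22 autosomal rows 2 were lower (9.1%) and 9 higher (40.9%), near the 12.5% and 44.5% of 4760 other autosomal loci. The inos-1 row averaged 2445 reads in gonads and 603 in whole animals, a log2 change of 2.04, and F02E8.4 and memi-3 changed by 1.73 and 1.58. The 16 X-linked mutator class rows that were lower were led by F52D2.6 and K07E3.2, with log2 changes of -2.06 and -1.49. Under equal library totals 31 rows were higher and 9 lower.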

How the data were processed

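Small RNA and mRNA libraries were made from pooled distal gonads or whole animals, with 3 libraries per group. For mRNAs the authors used Trimmomatic 0.35 for trimming, STAR 2.5.0a for alignment to WS230 and RSEM 1.3.0 for counting; small RNAs were mapped with CASHX and counted with custom scripts and SAMtools 1.6. The deposited values are normalized signal; DESeq2 1.18.1 is named in the submitters' processing notes, but the scaling is not stated. Library sums were 1.53e+07 to 1.68e+07 in the gonad mRNA table. Names and chromosomes were taken from RefSeq WBcel235, and gene start positions were used only to order genes for the runs of neighbours. Tests used limma 3.58.1 in R 4.3.3 with trend and robust options on log2(value + 1), which understates changes of low features. Features needed a value of at least 10 in 3 libraries. Calls needed a Benjamini-Hochberg adjusted p below 0.05 over all tested features and a fold of at least 1.3. All 3 genotypes shared 1 small RNA fit, and the 6 wild type libraries of each kind were fitted per table. The separately scaled tables were not combined.

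In the small RNA tables, values above 0 were whole multiples of a step within 0.01 in 100% of cases, which gave back whole reads, 2317176 to 7051210 per gonad library and 505952 to 1642602 per whole-animal library. Prg-1 replicate 1, with a step near 1, was left out of the count tests with edgeR 4.0.16 and DESeq2 1.42.0. The depth behind mRNA values is unknown. The study calls its replicates biological, each from its own pool of gonads. Same-numbered mut-16 and wild type mRNA libraries deviated together (correlations of 0.124, 0.547 and 0.358), so this comparison was also fitted with the replicate number as a block. The sources used here do not say whether the numbers mark pairs. The limma code was tested on simulated data. Transposon tables were not used.

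The members and gene lists were chosen with earlier results of these data known. Genes were named if they were among the 15 lowest prg-1 ratios, the 10 highest wild type means, the largest called 22G-RNA or gonad changes, next to a limit of the rule, or in a listed group or symbol family. Alternatives were other scalings, filters, pseudocounts, thresholds, a replicate block, 2 groups only and each library left out; count tests on 2 prg-1 libraries and the block in the mut-16 mRNA comparison were added after seeing the data.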

Additional observations from a re-analysis of the deposited data

How the results depend on the processing

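The set of 208 mRNAs kept a count within 1.5 times under RLE, TMM and equal-total scaling, medians and a wild type mean of at least 50. With a prg-1 ratio of at most 0.5 it held 96 genes (66 on the X), with at most 0.7 it held 330 (245 on the X), and with a mut-16 ratio above 0.9 it held 116 (79 on the X). With a library left out it held 181 to 230 genes, of which 136 to 173 were on the X; without prg-1 replicate 3, the library richest in sperm markers, it held 194, 150 of them on the X. Scaling moved the median small RNA change in prg-1 by -1.23 on the log2 scale when TMM factors came from miRNAs only; then 101 of the 22G-RNA rows were lower in prg-1 and 8 higher, against 79 and 13. In mut-16 that scaling and TMM over all features left 0 rows higher, equal totals gave 8 higher and 58 lower, and no fold threshold gave 2 higher, against 1 and 82; by edgeR and DESeq2 1 was higher. The rise of the arrd-13 row was 0.34 and not called under TMM and -0.39 under miRNA scaling. Between the mutants, equal totals gave 62 rows lower in prg-1, against 21, and 31 rows higher and 9 lower in wild type gonads than in whole animals, against 14 and 19. The cause of these shifts was not tested. On recovered reads with 2 prg-1 libraries, edgeR and DESeq2 each called 72 rows lower and 13 higher in prg-1. With each library left out, rows lower in prg-1 numbered 72 to 77 and higher 12 to 13.

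Same-numbered small RNA libraries did not deviate together (correlations of -0.131 to 0.107), so the numbers were not taken as pairs. With the replicate block 78 rows were lower and 13 higher in prg-1, and 78 lower in mut-16, with no count moved by over 1.5 times. Same-numbered mut-16 and wild type mRNA libraries did deviate together, and summed sperm markers were highest in replicate 2 of both groups (10145 and 1521). Whether the numbers mark true pairs was not tested. Over all 3 groups the block called 70 of the X-linked features that were not chosen lower in mut-16 and 71 higher, against 73 and 79. Fitted over only the 2 groups compared, 93 were lower and 94 higher without the block, and 95 and 104 with it. The block moved none of the reported mut-16 mRNA counts by over 1.5 times. Same-numbered prg-1 and wild type mRNA libraries did not deviate together (-0.407 to 0.436). Low 22G-RNA rows limit the depth: 7 of 123 fell under the filter.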
